A study of Mus musculus with 4 samples.

Results

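Neurotrophins and their receptors were examined through 6 genes taken by symbol from the authors' expression tables of cultured mouse hippocampal neurons: the ligand genes Bdnf and Ntf3 and the receptor genes Ntrk2, Ntrk3, Ngfr and Sort1. They are 6 of 22492 gene symbols, each held by 1 of the 22878 rows. The cultures came from CD1 pups at postnatal day 0, an outbred stock, and all were infected with lentivirus on day 4 in vitro and harvested on day 11. A pair of cultures carried the empty pLKO.1 vector (vector) and a pair a short hairpin RNA against the histone demethylase gene Kdm6b (Kdm6b shRNA). Within each pair, 1 culture was left untreated and 1 received bicuculline, given as 50µm and read here as micromolar, plus 2.5 mM 4-aminopyridine over 3 h (Bic/4AP). The former is an antagonist of inhibitory GABA-A receptors and the latter of voltage-gated potassium channels, and the pair is used to raise synaptic firing. There was 1 library for each of the 4 conditions, from 1 hairpin, and the labels do not say how many pups a culture held. No difference could therefore be tested, and every value describes 1 library.
Kdm6b shRNA, target as the labels give it: ctgttcttgagggacaaactc

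Neurotrophins are secreted growth factors that support the survival of neurons and shape their synapses. Each mature ligand binds a Trk receptor tyrosine kinase, BDNF mainly TrkB (Ntrk2) and NT-3 mainly TrkC (Ntrk3), while the precursors bind the p75 receptor (Ngfr) together with sortilin (Sort1), a sorting receptor that also steers BDNF within the cell. In hippocampal neurons Bdnf is a classic activity-regulated gene, read from several promoters whose transcripts all carry the same coding exon. One of these promoters is known for a cAMP response element bound by CREB.

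Start-site windows of the members are shown because Bdnf was the member furthest apart between untreated and stimulated cultures, and Ntf3 and Ngfr stood lower with Bic/4AP. RefSeq (GRCm38.p6) windows of 250 bases before to 50 bases after a start site were matched by symbol for 4 of the 6 members: 7 windows for Bdnf, 2 for Ntf3, 1 for Ntrk2 and 1 for Ngfr. Printed are the windows of the first 3 Bdnf starts at chr2:109674450-109674749, chr2:109676782-109677081 and chr2:109692186-109692485 on the plus strand, the first Ntf3 start at chr6:126166695-126166994 and the Ngfr start at chr11:95587649-95587948, both on the minus strand. They are written 5′ to 3′ along the gene, with motif matches in capitals.
Bdnf window 1: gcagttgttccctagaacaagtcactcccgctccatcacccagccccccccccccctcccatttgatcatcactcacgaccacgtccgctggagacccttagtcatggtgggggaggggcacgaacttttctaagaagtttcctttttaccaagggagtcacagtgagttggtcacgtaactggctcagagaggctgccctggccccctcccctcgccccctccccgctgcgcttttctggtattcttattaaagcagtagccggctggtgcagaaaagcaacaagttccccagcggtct
Bdnf window 2: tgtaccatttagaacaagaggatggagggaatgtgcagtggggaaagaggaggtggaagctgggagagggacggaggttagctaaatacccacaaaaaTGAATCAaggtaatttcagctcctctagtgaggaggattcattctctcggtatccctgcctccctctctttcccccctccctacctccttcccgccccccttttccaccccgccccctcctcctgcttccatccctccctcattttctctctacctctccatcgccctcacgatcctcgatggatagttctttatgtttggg
Bdnf window 3: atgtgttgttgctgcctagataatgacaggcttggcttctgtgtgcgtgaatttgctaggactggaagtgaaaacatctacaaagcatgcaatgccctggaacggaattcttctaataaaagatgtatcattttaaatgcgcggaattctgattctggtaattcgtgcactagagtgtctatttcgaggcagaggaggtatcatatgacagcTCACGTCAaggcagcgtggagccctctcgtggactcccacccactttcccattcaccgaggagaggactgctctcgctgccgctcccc
Ntf3 window 1: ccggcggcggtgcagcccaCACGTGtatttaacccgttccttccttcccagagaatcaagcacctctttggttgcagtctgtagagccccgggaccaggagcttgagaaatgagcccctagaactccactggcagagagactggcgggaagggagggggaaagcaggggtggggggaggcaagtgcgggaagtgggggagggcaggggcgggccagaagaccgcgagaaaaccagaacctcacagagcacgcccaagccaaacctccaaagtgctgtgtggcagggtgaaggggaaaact
Ngfr window 1: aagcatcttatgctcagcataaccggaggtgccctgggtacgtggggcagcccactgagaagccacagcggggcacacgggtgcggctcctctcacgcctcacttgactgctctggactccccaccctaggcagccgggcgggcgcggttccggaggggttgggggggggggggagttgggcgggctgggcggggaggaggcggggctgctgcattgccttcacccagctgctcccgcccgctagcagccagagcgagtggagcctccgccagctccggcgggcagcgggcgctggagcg

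Motifs were searched on both strands: the palindromic cAMP response element TGACGTCA, its variant TCACGTCA, the 5-base core TGACG that both contain on a strand, the AP-1 site TGANTCA and the E-box CACGTG. The third Bdnf window held TCACGTCA starting 38 bases before the start site, with the core inside it, and none of the other 10 windows held either. Of 32851 windows of all genes, 0.441% held TCACGTCA, 1.79% the palindrome and 20.8% the core. The second Bdnf window held an AP-1 match 152 bases before its start site, as did 7.81% of all windows, and the first Ntf3 window an E-box, as did 7.15%. The other 5 Bdnf windows, the second Ntf3 window and the windows of Ntrk2 and Ngfr held no match to these letters. The authors' tables list 4 start-site groups for Bdnf but give 1 level for the gene, so no level can be given to a single promoter.

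Levels are FPKM, fragments scaled to transcript length and library size, with the lower and upper bound that the authors' program gave for each. The bounds describe counting and read assignment within 1 library, not variation between cultures. Fragment totals were not used here. For genes at FPKM 5 or more, upper bounds lay a median of 4.18% to 4.44% above the values, so the 4 libraries were of similar precision. Kdm6b, the hairpin target, stood at 6.74 and 13.1 FPKM in vector cultures (untreated and Bic/4AP) and at 2.73 and 4.83 with the hairpin. The cultures held neuronal and glial transcripts: all 10 excitatory neuron, 13 inhibitory neuron and 10 astrocyte markers reached FPKM 1, and the astrocyte gene Gfap stood between 1514 and 1767 FPKM in cultures labelled as neurons. Differences are given in log2(FPKM + 1), which shrinks those of low genes such as Ntf3 and Ngfr, and 2-fold means a difference of at least 1 on it. Plain ratios of FPKM are given beside them.

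Ntrk2 stood far above every other member in all 4 libraries. In the untreated vector culture the order of FPKM was Ntrk2 (335), Sort1 (52.3), Bdnf (17.1), Ntrk3 (15.6), Ngfr (3.76) and Ntf3 (2.98). The bounds of Bdnf and Ntrk3 overlapped, as did those of Ngfr and Ntf3, and the other neighbours in that order were apart. Ntrk2 was among the most abundant of 21723 genes, ranking 181 there and 136 to 175 in the other libraries. With Bic/4AP, Bdnf stood above Sort1 and was the member next to Ntrk2 in both backgrounds. Ngfr and Ntf3 remained the lowest members of every library, with overlapping bounds except in the stimulated hairpin culture.

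**Figure D1:**
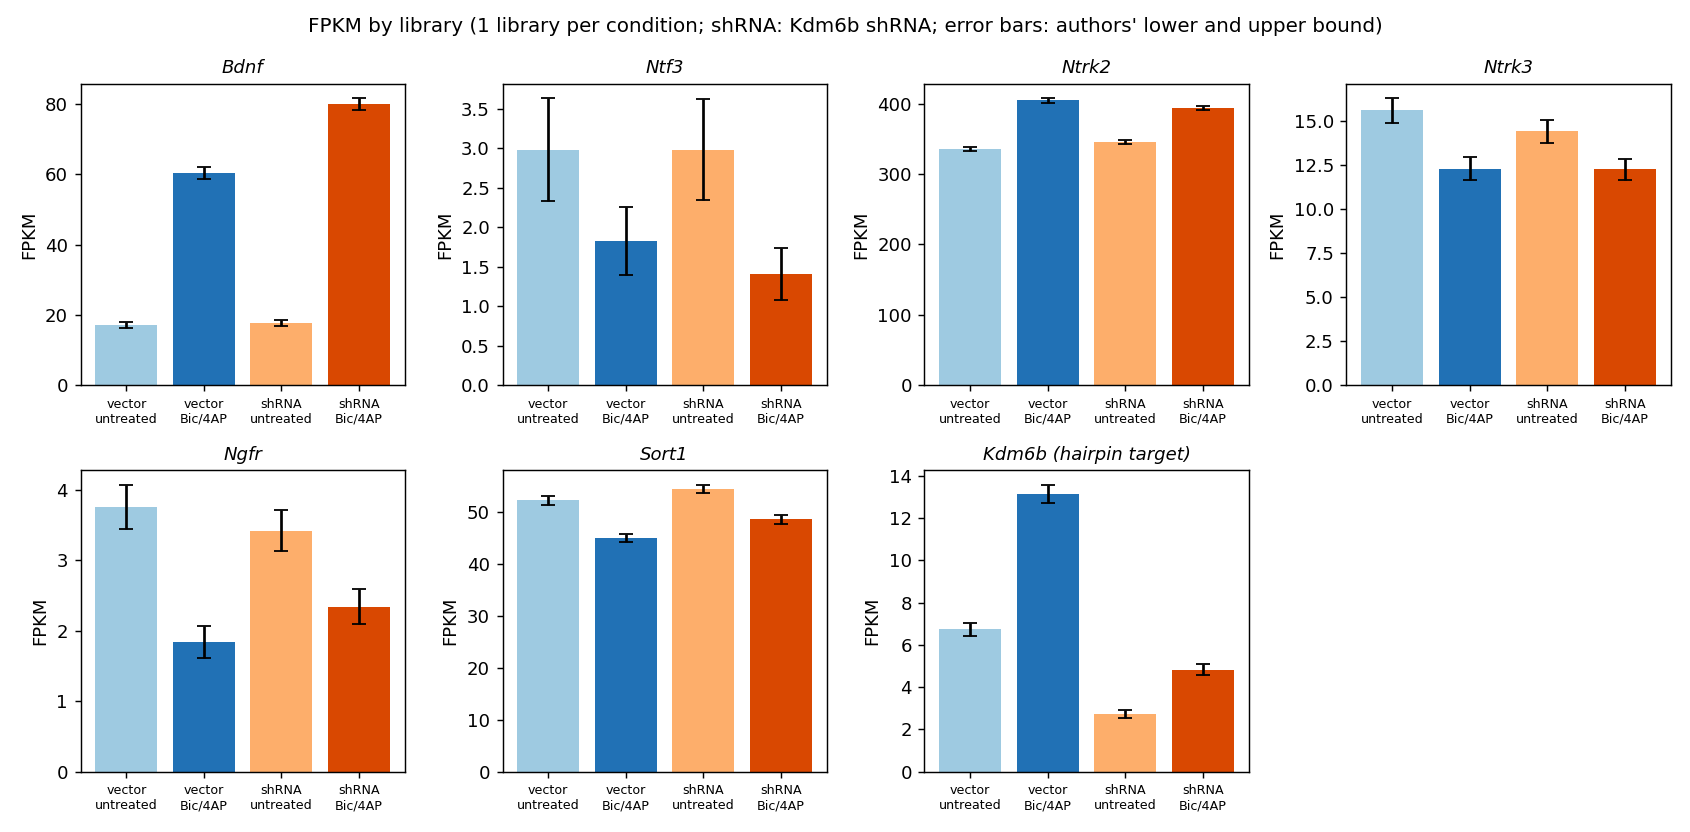
FPKM of the 6 genes and of the hairpin target Kdm6b in each of the 4 libraries (bars, linear axes from 0; error bars are the authors' lower and upper bounds). Bdnf stands at 60.4 and 80.0 in the Bic/4AP cultures against 17.1 and 17.7 untreated, while Ngfr and Ntf3 are lower in both Bic/4AP cultures.

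The first comparison asked how the ligands differ after 3 h of synaptic firing. Bdnf, which supports survival and synaptic plasticity, stood at 17.1 FPKM untreated (bounds 16.2 to 18.0) and 60.4 with Bic/4AP (58.8 to 62.0) in vector cultures. With the hairpin it stood at 17.7 (16.9 to 18.6) untreated and 80.0 (78.2 to 81.8) with Bic/4AP. Both Bic/4AP libraries lay far above both untreated ones, with no overlap of bounds. The ratio was 3.54 in vector cultures (3.27 to 3.83 from the bounds), a difference of 1.76, and 4.52 with the hairpin (4.21 to 4.85), a difference of 2.11. Bdnf ranked 90 of 13217 genes in the vector response and 69 of 13320 in the hairpin response. In RNA of whole cultures, a different number of cells of a type and a different amount of RNA per cell cannot be told apart.

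Ntf3, the gene of NT-3, was the weakest member and lay lower in both stimulated cultures. It stood at 2.98 FPKM (2.33 to 3.64) untreated and 1.83 (1.40 to 2.26) with Bic/4AP in vector cultures, and at 2.98 (2.35 to 3.62) and 1.41 (1.08 to 1.74) with the hairpin. The bounds of stimulated and untreated cultures did not overlap within either background, though in vector cultures they nearly met. After median-ratio scaling, those in vector cultures overlapped. The difference was -0.49 in vector cultures and -0.72 with the hairpin, and with a pseudocount of 0.1 the latter passed 2-fold. The plain ratio of stimulated to untreated level was 0.612 in vector cultures (0.383 to 0.970 from the bounds) and 0.473 with the hairpin (0.299 to 0.741). The ratio of Bdnf to Ntf3 was 5.73 and 5.94 in the untreated vector and hairpin cultures and 33.1 and 56.7 in the stimulated ones.

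Ntf5, the gene of NT-4, which like BDNF binds TrkB, did not exceed 0.173 FPKM in any library, so Bdnf stood far above it throughout.

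Among the receptors, the TrkB gene stood higher and the other 3 lower with Bic/4AP, all by less than 2-fold on the log2(FPKM + 1) scale. Ntrk2 stood at 335 FPKM (333 to 338) untreated and 405 (401 to 408) with Bic/4AP in vector cultures, and at 345 (343 to 348) and 393 (391 to 396) with the hairpin. Both stimulated libraries lay above both untreated ones, by a ratio of 1.21 in vector cultures and 1.14 with the hairpin. The tables give 1 level for the gene, so full-length TrkB and the truncated receptor known from astrocytes were not separated. The 10 astrocyte markers summed to 2941 and 3180 FPKM in vector cultures and 2834 and 3212 with the hairpin, sums in which Gfap had the largest share. Singly, 5 of the 10 stood higher and 5 lower with Bic/4AP in vector cultures, from -0.27 (Slc1a2) to 0.80 (Sox9), and 8 higher and 2 lower with the hairpin. Among all genes, 40.3% stood higher with Bic/4AP in vector cultures and 34.7% with the hairpin. The part of the astrocyte markers in the Ntrk2 difference was not tested.

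Ntrk3, the TrkC gene, stood at 15.6 FPKM (14.9 to 16.3) untreated and 12.3 (11.7 to 12.9) with Bic/4AP in vector cultures, and at 14.4 (13.8 to 15.0) and 12.2 (11.6 to 12.9) with the hairpin. The stimulated level was 78.8% of the untreated one in vector cultures and 85.0% with the hairpin. Ntrk2 and Ntrk3 thus lay apart in direction, and their ratio was 21.5 and 24.0 in the untreated vector and hairpin cultures and 32.9 and 32.1 in the stimulated ones.

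Ngfr, the p75 receptor gene, stood at 3.76 FPKM (3.44 to 4.07) untreated and 1.83 (1.61 to 2.06) with Bic/4AP in vector cultures, and at 3.42 (3.13 to 3.71) and 2.34 (2.09 to 2.59) with the hairpin. Both stimulated libraries lay below both untreated ones, with no overlap of bounds. The plain ratio of stimulated to untreated level was 0.489 in vector cultures (0.395 to 0.599 from the bounds) and 0.685 with the hairpin (0.563 to 0.828). On the log2(FPKM + 1) scale these are differences of -0.75 and -0.40, and Ngfr ranked 172 from the lowest of 13217 genes in the vector response. Sort1, the sortilin gene, stood at 52.3 FPKM (51.5 to 53.1) and 45.0 (44.2 to 45.8) in vector cultures and at 54.5 (53.7 to 55.3) and 48.6 (47.8 to 49.4) with the hairpin. Its stimulated level was 86.0% and 89.2% of the untreated one. Outside the neurons, p75 is known from Schwann and neural crest cells. Of 7 markers listed for these, 3 reached FPKM 1 in a library: Gap43, which neurons also express, at 447 to 501 FPKM, Pmp22 at 44.7 to 75.8, and Egr2, which activity also induces, at 1.03 and 28.1 in vector cultures and 1.23 and 26.1 with the hairpin. Sox10 and Foxd3 reached at most 0.168 and 0.00975 FPKM. The list summed to 547 and 523 FPKM in vector cultures and 554 and 552 with the hairpin, sums in which Gap43 had the largest share. They therefore do not measure Schwann or neural crest cells. The part of such cells in the Ngfr difference was not tested.

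Counted over the members, 1 of 6 (Bdnf) was 2-fold higher and 0 of 6 were 2-fold lower with Bic/4AP, in vector cultures and with the hairpin alike. Of all genes compared, 2.22% were 2-fold higher and 0.272% 2-fold lower in vector cultures, and 2.08% and 0.158% with the hairpin. The bounds of untreated and stimulated libraries did not overlap for any of the 6 members in either background, against 58.7% of all genes in vector cultures and 54.6% with the hairpin. These counts are on the values as deposited. After median-ratio scaling, the bounds of Ntf3 in vector cultures overlapped. In each background 2 members lay above 0 and 4 below. The share of all genes above 0 was 40.3% in vector cultures and 34.7% with the hairpin. The members' median was -0.27 in vector cultures, where that of all genes was -0.07, and -0.19 with the hairpin, where it was -0.08.

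**Figure D2:**
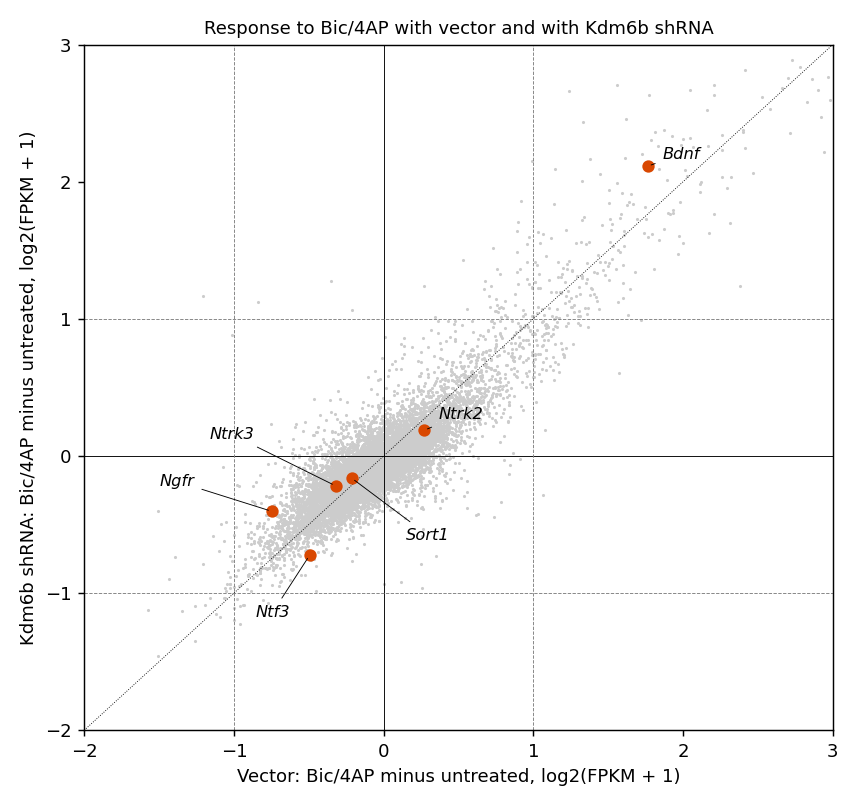
Bic/4AP minus untreated in log2(FPKM + 1), vector cultures on the x axis and Kdm6b shRNA cultures on the y axis, which share no library; grey points are 13079 genes compared in both (28 lie outside the axes), dashed lines mark 2-fold and the dotted line equal responses. Bdnf (1.76 and 2.11) lies beyond 2-fold on both axes, Ntrk2 slightly above 0 and the other members below 0 on both.

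The next comparison asked whether the members differ with the hairpin at rest. They lay close to their vector levels: Ntf3 was at 2.98 FPKM in both libraries, Bdnf at 104% of its vector level, Ntrk2 at 103%, Sort1 at 104%, Ntrk3 at 92.3% and Ngfr at 91.1%. The range the bounds allow for the Bdnf ratio was 0.938 to 1.15, and for the Ntf3 ratio 0.645 to 1.56. None of the 6 was 2-fold higher or lower, against 0.414% and 0.669% of all genes. Bounds were apart for 2 of 6 members, Ntrk2 and Sort1, against 55.2% of all genes. The signs of the small Bdnf, Ntf3, Ntrk2 and Sort1 differences were negative under median-ratio scaling, so no direction is given for them.

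With Bic/4AP present, Bdnf differed more between hairpin and vector cultures. It stood at 80.0 FPKM with the hairpin and 60.4 with the vector, a ratio of 1.32 (1.26 to 1.39 from the bounds) and a difference of 0.40, which ranked 755 of 13240 genes. Ngfr stood at 2.34 and 1.83 (ratio 1.28, 1.01 to 1.61) and Sort1 at 48.6 and 45.0 (ratio 1.08). Ntrk2 was at 97.2% of the vector level and Ntrk3 at 99.6%, while Ntf3 was at 77.2% with overlapping bounds. None of the 6 members was 2-fold higher or lower, against 0.189% and 0.536% of all genes. Bounds were apart for 4 of 6, namely Bdnf, Ngfr and Sort1 higher and Ntrk2 lower, against 49.7% of all genes. Those of Ngfr overlapped after median-ratio scaling.

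Cell type markers also differed between hairpin and vector cultures. The 13 inhibitory neuron markers summed to 1244 and 1229 FPKM in vector cultures (untreated and Bic/4AP) and to 633 and 900 with the hairpin, and the 10 excitatory markers to 687 and 499 against 504 and 438. Singly, 12 of the 13 inhibitory markers lay below their vector level untreated and 10 with Bic/4AP. Among all genes, 58.9% lay above their vector level untreated and 56.4% with Bic/4AP. Of the excitatory markers 9 lay below untreated, but with Bic/4AP 5 lay above and 5 below, with a median of 0.01. Slc17a7 had the largest excitatory difference in FPKM there, at 206 with the vector and 150 with the hairpin. The 11 microglia markers, of which 9 reached FPKM 1 in a library, summed to 52.4 and 49.8 in vector cultures and to 22.5 and 23.1 with the hairpin. Of 8 compared in each state, 7 lay lower with the hairpin untreated and 6 with Bic/4AP. In these libraries Bdnf stood at 17.1 and 60.4 FPKM with the vector (untreated and Bic/4AP) and at 17.7 and 80.0 with the hairpin. The part of these markers in the Bdnf difference with Bic/4AP was not tested.

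**Figure D3:**
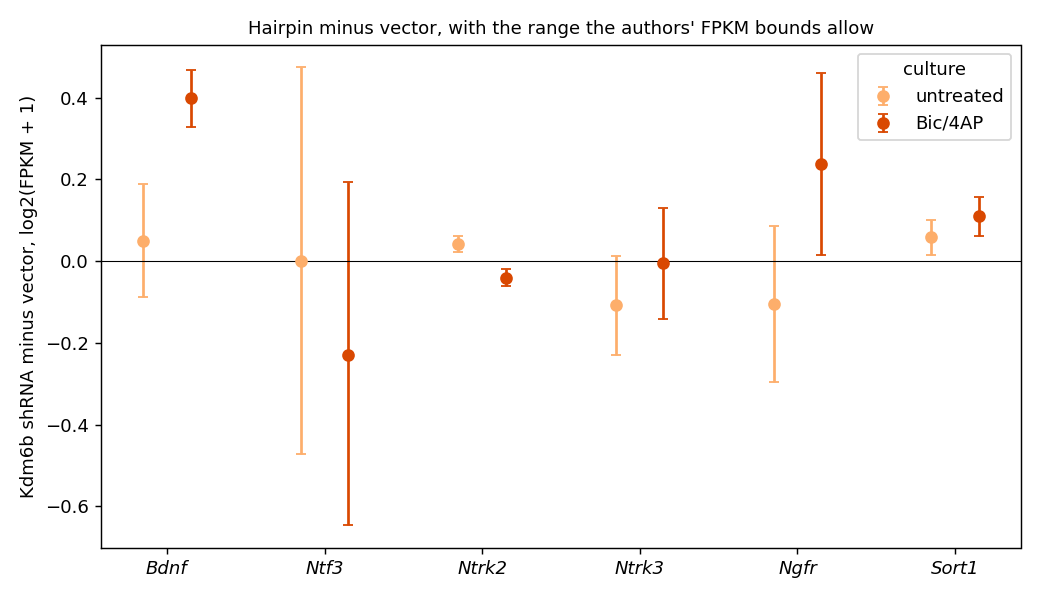
Kdm6b shRNA minus vector in log2(FPKM + 1) for the 6 genes in untreated (light) and Bic/4AP (dark) cultures; points are the differences and bars the range that the authors' FPKM bounds allow. Bdnf lies near 0 untreated and at 0.40 with Bic/4AP, and the bars of Ntf3 cross 0 in both.

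The design also allows the Bic/4AP responses to be set against each other. The response of Bdnf was larger with the hairpin by 0.35 on the log2(FPKM + 1) scale (0.14 to 0.56 from the 4 pairs of bounds), ranking 396 from the highest of 13458 genes. That of Ntrk2 was smaller by a difference of -0.08 (-0.12 to -0.04). For Ngfr the difference was 0.34 (-0.07 to 0.76), for Ntrk3 0.10, for Sort1 0.05 and for Ntf3 -0.23 (-1.12 to 0.66), and the ranges of these 4 held 0. No member reached a difference of 1 in either direction, against 0.111% of all genes higher and 0.126% lower. These shares rest on 15 and 17 genes, which became 39 and 41 with a pseudocount of 0.1, 7 and 4 with a pseudocount of 5, and 103 and 106 with small RNA genes kept. The range left out 0 for 2 of 6 members, against 11.4% of all genes. Without replicate cultures, this difference of responses has no test.

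Genes with a profile like that of Bdnf were found by distance. Each gene's log2(FPKM + 1) values over the 4 libraries were centred on their mean, and the Euclidean distance to Bdnf was taken over 12649 other genes with FPKM of at least 1 in every library. The nearest were Dio2, the type of deiodinase that activates thyroid hormone (0.10), Pcdh8, a protocadherin (0.17), Rgs2, a regulator of G protein signalling (0.17), Fosl2, an AP-1 subunit (0.19), and Rnf217, a ubiquitin ligase gene (0.21). Dio2 stood at 3.43 and 14.8 FPKM in vector cultures and 3.46 and 18.0 with the hairpin. Pcdh8 stood at 40.0 and 134 in vector cultures and 35.5 and 167 with the hairpin. All 5 were highest, as Bdnf was, in the stimulated hairpin culture. This likeness follows from the search, which chose them by their distance to Bdnf over these same libraries. The other 5 members spanned less than 1 over the 4 libraries, between 0.27 and 0.75, and were not searched.

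**Figure D4:**
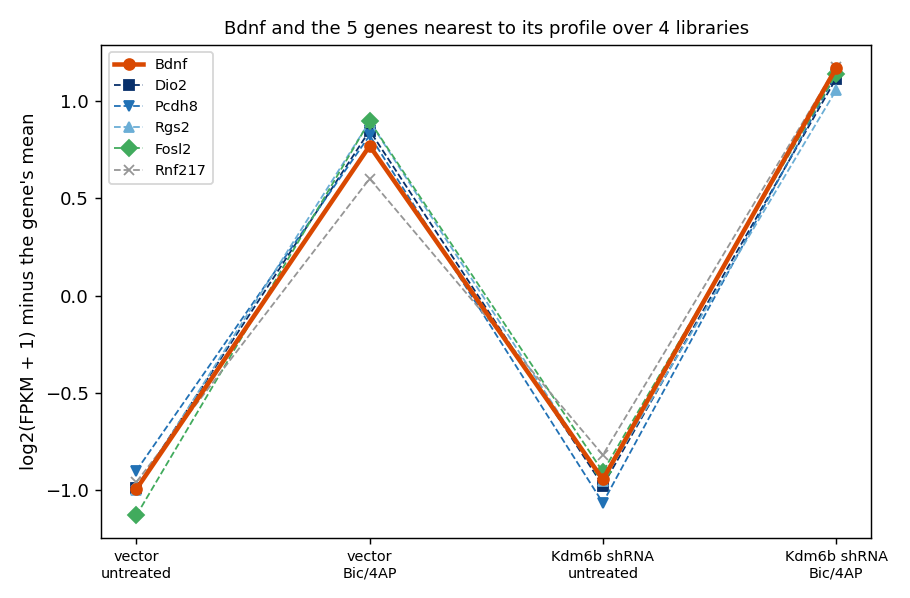
Centred log2(FPKM + 1) of Bdnf (thick line) and its 5 nearest genes in the 4 libraries; lines only join the points of a gene. All 6 genes lie below their mean in both untreated cultures and highest in the stimulated hairpin culture, a likeness by which the 5 were chosen.

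The genes that surround the members were described by lists. Their 2-fold counts stand beside these shares of all genes higher and lower. With Bic/4AP the shares were 2.22% and 0.272% in vector cultures and 2.08% and 0.158% with the hairpin. Between hairpin and vector they were 0.414% and 0.669% untreated and 0.189% and 0.536% with Bic/4AP. Of 10 compared genes for other neurotrophin ligands, receptors and co-receptors, 0 were 2-fold lower and 8 lay below 0 with Bic/4AP in each background. Beside this, 40.3% of all genes lay above 0 in vector cultures and 34.7% with the hairpin. Rtn4r, the Nogo receptor gene, stood at 19.8 and 9.73 FPKM in vector cultures and 15.0 and 7.40 with the hairpin. Lingo1, which with p75 and the Nogo receptor forms a signalling complex, stood at 68.8 and 42.6 in vector cultures and 61.6 and 42.5 with the hairpin. With the hairpin at rest this list had a median of -0.37, beside 0.05 for all genes. In that comparison 8 of 10 lay below 0, among them Sorcs3, a relative of Sort1 (-0.51), while 58.9% of all genes lay above 0.

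Proneurotrophins are cut by proteases and packed into granules. Of 15 compared genes for these steps, 3 were 2-fold higher with Bic/4AP in each background and 0 lower, among them Pcsk1, a prohormone convertase, and Syt4, a synaptotagmin of BDNF vesicles. Pcsk1 stood at 7.67 and 19.5 FPKM in vector cultures and at 3.14 and 25.2 with the hairpin. It was the sole list member 2-fold lower with the hairpin at rest (-1.07), and its response was larger with the hairpin by 1.42. Syt4 stood at 57.3 and 158 in vector cultures and at 44.4 and 188 with the hairpin. Plat, tissue plasminogen activator, which makes the plasmin that cuts proBDNF outside the cell, stood at 55.7 and 89.1 in vector cultures and 69.0 and 98.0 with the hairpin. Furin, which cuts proneurotrophins within the cell, stood between 15.8 and 17.7 in the 4 libraries.

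Signalling genes downstream of the receptors were counted in the same way. With 2.22% and 2.08% of all genes 2-fold higher with Bic/4AP in vector and hairpin cultures, the counts do not set these lists apart from all genes. Of 39 Trk adaptor and kinase genes, 1 was 2-fold higher with Bic/4AP in each background (Irs2, an insulin receptor substrate, at 16.5 and 44.9 FPKM in vector cultures and 20.6 and 49.2 with the hairpin) and none lower, with list medians of -0.11 and -0.09. None of 21 genes for p75 adaptors and sheddases (medians 0.01 and 0.04) and none of 15 for Trk trafficking (medians -0.00 and -0.03) was 2-fold apart in any of the 4 comparisons. None of the 39 was 2-fold apart between hairpin and vector.

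Of 27 genes for factors known to act at Bdnf, 4 were 2-fold higher with Bic/4AP in vector cultures, namely Npas4, Gadd45b, Nfkb1 and Bhlhe40. With the hairpin 3 were, Bhlhe40 lying at 0.89. Npas4, an activity-induced transcription factor that binds Bdnf promoters, stood at 1.52 and 340 FPKM in vector cultures and 1.28 and 360 with the hairpin. Creb1, the CREB gene, stood at 7.04 and 5.40 in vector cultures and 7.66 and 5.32 with the hairpin. None of this list was 2-fold apart between hairpin and vector, and its differences there ran from -0.43 (Mef2c) to 0.36 (Nfkb1) at rest and from -0.30 (Rela) to 0.32 (Mef2a) with Bic/4AP.

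Of 21 genes known to respond to BDNF through TrkB, 14 were 2-fold higher with Bic/4AP in each background, with medians of 1.98 and 2.01. The immediate-early genes Fos, at 12.5 and 771 FPKM in vector cultures and 15.3 and 765 with the hairpin, and Arc, at 4.89 and 165 and at 3.61 and 185, were among them. They also included Vgf, a secreted neuropeptide precursor, at 81.8 and 195 FPKM in vector cultures and 62.2 and 168 with the hairpin, and Dusp6, a phosphatase of ERK kinases, at 13.4 and 67.8 and at 16.8 and 71.7. Neuronal activity is known to induce these genes directly as well, and these routes cannot be told apart here. With the hairpin at rest 3 of the 21 were 2-fold lower, the interneuron peptide genes Cort (-1.47), Npy (-1.46) and Sst (-1.25), beside the lower inhibitory neuron markers above, 2 of which are Npy and Sst. With Bic/4AP none of the 21 was 2-fold apart between hairpin and vector.

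**Figure D5:**
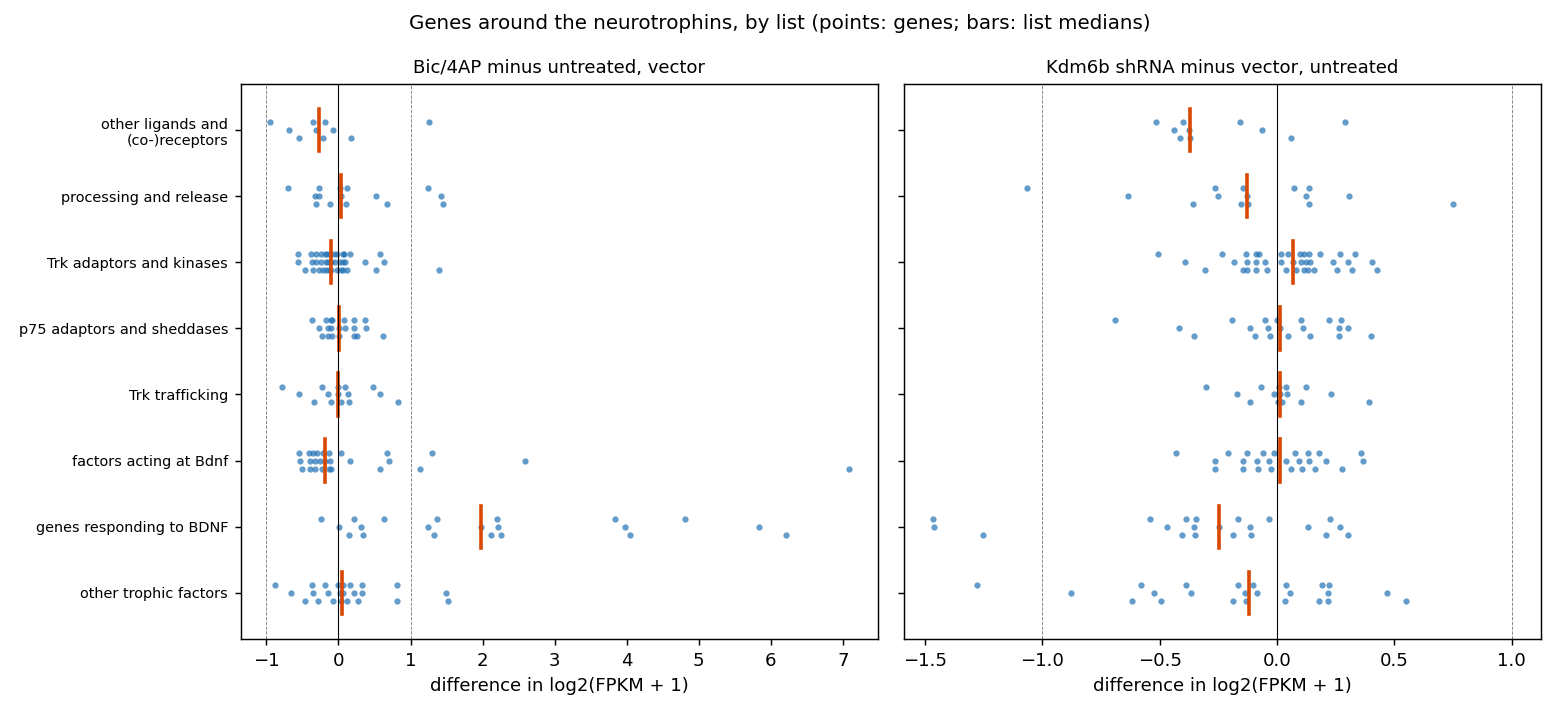
Differences in log2(FPKM + 1) of the genes in 8 lists around the neurotrophins (points; orange bars are list medians; dashed lines mark 2-fold): Bic/4AP minus untreated in vector cultures on the left, Kdm6b shRNA minus vector, untreated, on the right, each with its own x axis. The untreated vector library enters both panels. Genes responding to BDNF have a median of 1.98 on the left, and the medians of the other lists lie between -0.26 and 0.05 there.

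Gene positions are in mouse build mm9, counted from 1. Bdnf lies on chromosome 2 from 109514857 to 109567200, Ntf3 on chromosome 6 from 126051430 to 126116762, Ntrk2 on chromosome 13 from 58907957 to 59231328 and Ntrk3 on chromosome 7 from 85337000 to 85722724. Ngfr lies on chromosome 11 from 95430140 to 95449012 and Sort1 on chromosome 3 from 108087050 to 108164429. No other row of the tables overlapped a member's locus. The genes next to Bdnf were Kif18a, a kinesin gene, at 1.42 and 3.08 FPKM in vector cultures and 1.91 and 4.23 with the hairpin, and Lin7c, a scaffold gene, at 57.2 and 54.2 and at 85.1 and 67.7.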

How the data were processed

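Libraries of polyA-selected RNA (Illumina TruSeq) came from 4 cultures, 1 for each group. The authors deposited FPKM with a lower and an upper bound per row. Build mm9, Cufflinks 2.0.2, TopHat2 2.0.8b and CASAVA 1.8 are listed in the submitters' processing notes, without roles; the annotation is not given in the sources used here.

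Rows of a symbol were summed, symbols with a failed row in any library and small RNA genes recognised by symbol were left out, and 21723 symbols remained. A gene was compared at FPKM of at least 1 in a compared library, with a pseudocount of 1, in Python 3.11.15 with pandas 2.3.3. All 6 members passed in each comparison. Starts in the tables count from 0, since 594 of 624 microRNA rows (95.2%) gave a length of exactly end minus start. The counting was tested on simulated data. With 1 library per group there were no tests; comparisons sharing a library are not independent.

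Members and 8 gene lists were chosen with earlier results of these data known. Named genes were the members, Kdm6b, Ntf5, list genes 2-fold apart, up to 2 largest and 2 smallest differences per list, the 5 nearest profiles and flanking genes. Furin, Plat, Creb1, Gfra1 and the marker genes named were chosen after their values were seen. Some genes that the rule names are not reported here. Alternatives were pseudocounts of 0.1 and 5, other filters and scalings, small RNA genes kept, non-overlapping bounds and the highest row.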

Additional observations from a re-analysis of the deposited data

How the results depend on the processing

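The members' 2-fold counts were the same under every alternative run except a pseudocount of 0.1, which made 1 member 2-fold lower with Bic/4AP in hairpin cultures (Ntf3). Ngfr reached -0.99 in vector cultures with that pseudocount and -0.36 with 5. With FPKM of at least 5, Ntf3 and Ngfr were not compared. Of 260 recomputed member differences, 19 moved by more than the bounds allow and 6 changed sign, all between hairpin and vector untreated. Counts over all genes moved with the pseudocount and with small RNA genes kept. At a pseudocount of 0.1, genes 2-fold lower numbered 130 and 97 in the vector and hairpin responses, and genes higher and lower with the hairpin 149 and 149 untreated and 105 and 115 with Bic/4AP. At 5, higher and lower genes were 171 and 0 in the vector response, 160 and 1 in the hairpin response, 11 and 32 for the hairpin untreated and 4 and 26 with Bic/4AP. With small RNA genes kept, lower genes were 92 in each response, and the hairpin counts 117 and 160 untreated and 79 and 133 with Bic/4AP. Genes whose responses differed by at least 1, 15 higher and 17 lower as reported, were 39 and 41 at 0.1, 7 and 4 at 5, and 103 and 106 with small RNA genes kept. Median-ratio scaling gave 22 lower genes in the vector response, and FPKM of at least 5 gave 13 higher with the hairpin and Bic/4AP. The cause was not tested. Bounds limit Ntf3 most, at 21.4% to 23.6% of its value. No paired analysis was possible because each group has 1 library.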

Other observations

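Other neurotrophic factors were measured in the same libraries. Of 24 compared genes for other trophic ligands and receptors, 2 were 2-fold higher with Bic/4AP in each background, Hbegf, an EGF receptor ligand gene, and Lif, a cytokine gene. Hbegf stood at 54.3 and 157 FPKM in vector cultures and at 21.8 and 66.4 with the hairpin, and was 2-fold lower with the hairpin both untreated (-1.28) and with Bic/4AP (-1.23). Lif stood at 1.26 and 5.38 in vector cultures and at 2.14 and 7.18 with the hairpin. Bdnf stood at 17.1 and 60.4 in vector cultures and at 17.7 and 80.0 with the hairpin. Gfra1, the GDNF receptor gene, stood at 18.5 and 33.1 in vector cultures and at 11.7 and 17.8 with the hairpin.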
